A study of Mus musculus with 12 samples.

Results

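Granzyme A (Gzma), granzyme B (Gzmb), granzyme K (Gzmk) and natural killer cell granule protein 7 (Nkg7) were followed in spleen T cells of 12 mice. The 4 genes were taken by symbol. All 4 were among the 2999 genes listed for CD4 cells, and 1 of them, Nkg7, was among the 2851 listed for CD8a cells. The granzymes in CD8a cells were not analysed here. The groups were 3 S100a9-/- C57Bl6/J mice (knockout, KO) after repeated social defeat stress, 3 KO mice without stress, 3 C57Bl6/J mice (wild type, WT) after stress and 3 WT mice without stress. Social defeat, in which a mouse is repeatedly defeated by an aggressor, ran for 10 days. It was followed by 1 day of behaviour tests, and splenocytes were taken on day 12. S100a9 encodes a subunit of calprotectin, a protein of neutrophils and monocytes. The age and sex of the mice, the deleted part of S100a9 and the number of cells behind each average are not given in the sources used here.

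Cytotoxic lymphocytes store granzymes, which are serine proteases, in secretory granules together with perforin, and release them onto a target cell. Perforin opens the way into the target, where granzyme B cleaves after aspartate and starts apoptosis, while granzymes A and K cleave after basic residues. Nkg7 is a membrane protein of these granules that promotes their release. In the spleen these genes are known mainly from natural killer cells and effector or memory CD8 T cells, and a small part of CD4 T cells can also use them.

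The genes lie at 3 places in the genome (GRCm38.p6, the same assembly as mm10). Gzma (chromosome 13, 113093824 to 113100981) and Gzmk (chromosome 13, 113171630 to 113180965) are neighbours, 70648 bases apart with 1 annotated gene between them. Gzmb lies at chromosome 14, 56258836 to 56262334, and Nkg7 at chromosome 7, 43437138 to 43438246. All 4 are annotated as protein-coding. With both genotypes in 1 fit all 4 genes were called higher in CD4 cells after stress, though in KO mice alone only Gzma passed (values below). Shared regulation was not tested. The promoters of the 4 genes are shown, from 250 bases before to 50 after the annotated start, 5′ to 3′ on the gene's own strand, from RefSeq. Capitals mark the motifs named after the sequences. They are chr13:113100932-113101231, minus strand (Gzma), chr14:56262285-56262584, minus strand (Gzmb), chr13:113180916-113181215, minus strand (Gzmk) and chr7:43436888-43437187, plus strand (Nkg7).
Gzma: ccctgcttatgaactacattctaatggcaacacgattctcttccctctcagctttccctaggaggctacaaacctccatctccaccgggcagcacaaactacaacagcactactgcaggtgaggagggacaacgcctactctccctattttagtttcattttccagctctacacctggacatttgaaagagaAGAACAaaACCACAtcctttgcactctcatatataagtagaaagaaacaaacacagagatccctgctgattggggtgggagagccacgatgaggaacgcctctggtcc
Gzmb: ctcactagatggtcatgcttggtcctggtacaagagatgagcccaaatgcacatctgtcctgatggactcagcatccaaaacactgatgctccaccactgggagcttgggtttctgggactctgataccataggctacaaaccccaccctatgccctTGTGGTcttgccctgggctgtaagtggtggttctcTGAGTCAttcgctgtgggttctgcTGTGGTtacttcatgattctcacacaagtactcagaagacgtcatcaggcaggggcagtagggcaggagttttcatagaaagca
Gzmk: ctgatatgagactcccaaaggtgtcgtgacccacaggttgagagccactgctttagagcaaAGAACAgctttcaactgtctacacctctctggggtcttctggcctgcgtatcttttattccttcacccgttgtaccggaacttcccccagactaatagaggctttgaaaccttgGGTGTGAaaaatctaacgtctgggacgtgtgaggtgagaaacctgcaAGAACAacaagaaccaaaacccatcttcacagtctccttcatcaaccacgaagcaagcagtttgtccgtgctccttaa
Nkg7: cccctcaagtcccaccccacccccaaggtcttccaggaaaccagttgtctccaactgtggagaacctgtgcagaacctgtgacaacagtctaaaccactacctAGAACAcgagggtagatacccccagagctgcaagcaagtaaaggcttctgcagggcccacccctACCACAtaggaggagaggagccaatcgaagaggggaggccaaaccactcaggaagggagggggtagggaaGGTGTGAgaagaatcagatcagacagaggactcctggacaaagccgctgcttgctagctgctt
The motifs were searched on both strands and no matches overlapped. They were chosen from factors known in cytotoxic T cells and in the response to glucocorticoids, with the sequences in view. GGTGTGA, a T-box motif, was found in Gzmk, 75 bases before the start, and in Nkg7, 13 bases before it, and in 3.98% of all 32851 promoters of this length. TGTGGT, a Runx motif, was found in Gzma, in Gzmb at 2 places and in Nkg7, and in 16.8% of all promoters. TGANTCA, an AP-1 motif, was found in Gzmb, 58 bases before the start, and in 7.81% of all. AGAACA, a glucocorticoid receptor half-site, was found in Gzma, in Gzmk at 2 places and in Nkg7, and in 19.0% of all. The full palindromic glucocorticoid receptor site, this half-site and its reverse complement 3 bases apart, was in none of these 4 windows and in 3 of all promoters. No motif was shared by all 4 windows.

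Levels are average expression per mouse over the cells of a type, on a scale that appears to be per 10000. The listed genes summed to 8120 to 8225 in CD4 cells of stressed mice and 7367 to 7562 in unstressed mice, and to 8102 to 8270 and 7419 to 7615 in CD8a cells of the same groups. The depth behind each value is unknown. An average cannot tell more cells with a transcript from more transcript in each cell. The labelled cell types were checked against their markers. In CD4 cells Cd4 had a level of 1.66 to 2.47 in stressed and 2.58 to 3.01 in unstressed mice. Cd8a, which marks the other class, had 0.0526 to 0.269 there in stressed and 0.0625 to 0.160 in unstressed mice, and Cd8b1 had 0.303 to 0.883 and 0.291 to 0.822. In CD8a cells Cd8a had 3.38 to 4.16 in stressed and 4.35 to 5.27 in unstressed mice, and Cd8b1 had 8.01 to 9.55 and 10.1 to 11.6.

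In CD4 cells of WT mice all 4 genes were higher after stress, and Gzma by the most. The level of Gzma was 2.22, 0.616 and 2.66 in stressed WT mice 1, 2 and 3, against 0.137, 0.0123 and 0.0638 in unstressed WT mice 1, 2 and 3. Every stressed mouse was above every unstressed mouse, as for 36.4% of the genes listed for this comparison, and stressed mouse 2 was the lowest of its group. The ratio of the group means was 25.9. Changes were tested with limma as the difference of log2(level + 0.1), with p-values adjusted over the genes that the authors listed for the comparison and a call at an adjusted p under 0.05. Gzma rose by 3.35 ± 0.40 on this scale (SE, adjusted p = 2.06e-05).

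Gzmb had a level of 0.479, 0.139 and 0.414 in stressed WT mice 1, 2 and 3, against 0.0330, 0.00791 and 0.0287 in unstressed WT mice 1, 2 and 3. The groups did not overlap, and mouse 2 was again the lowest stressed mouse. The log2 change was 1.76 ± 0.26 (limma, adjusted p = 7.77e-05). Gzmk had 0.129, 0.0394 and 0.214 in stressed WT mice, against 0.00285, 0.00288 and 0.0156 in unstressed WT mice, and again the groups did not overlap. Its log2 change was 1.01 ± 0.23 (limma, adjusted p = 0.00186). Its levels are close to the 0.1 that was added, so this size depends on that number. It was 2.84 with 0.01 added and 0.16 with 1 added, and past the threshold with each. The same choice set the change of Gzma at 4.64 and 1.32, and that of Gzmb at 3.34 and 0.38.

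The level of Nkg7 was 2.66, 0.956 and 2.28 in stressed WT mice 1, 2 and 3, against 0.808, 1.01 and 0.430 in unstressed WT mice 1, 2 and 3. Stressed mouse 2 was below unstressed mouse 2, so the groups overlapped. The log2 change was 1.23 ± 0.32 (limma, adjusted p = 0.00476). All 4 genes were thus called higher in this comparison, against 31.0% of the 2413 genes listed for it. Their median log2 change was 1.49, against 0.15 over all those genes. The authors chose the listed genes on these same mice, so being listed and being called are not independent.

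**Figure D1:**
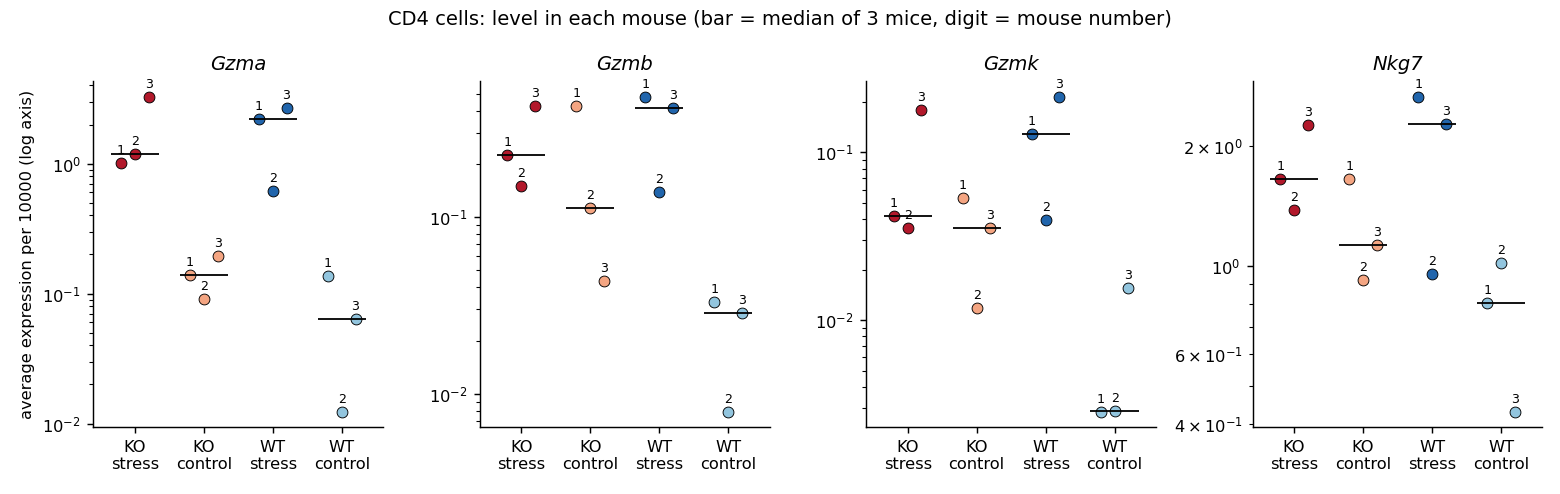
Level of Gzma, Gzmb, Gzmk and Nkg7 in CD4 cells of each mouse (average expression per 10000, log axis), by group, with the median of 3 mice as a bar and the mouse number as a digit. For Gzma all 6 stressed mice lie above all 6 unstressed mice. Gzmb in unstressed KO mouse 1, at 0.426, is the highest of the unstressed mice, and the next is unstressed KO mouse 2, at 0.112.

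In CD4 cells of KO mice Gzma was again higher after stress, and the other 3 genes did not pass the threshold. The level of Gzma was 1.02, 1.18 and 3.27 in stressed KO mice 1, 2 and 3, against 0.140, 0.0914 and 0.194 in unstressed KO mice 1, 2 and 3. The groups did not overlap, as for 28.8% of the listed genes, and the ratio of the means was 12.9. The log2 change was 2.83 ± 0.30 (limma, adjusted p = 3.59e-06). Gzma was 1 of 2 members listed for this comparison, for which 19.5% of 1898 listed genes were called higher.

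Gzmk, the other listed member, had 0.0416, 0.0355 and 0.178 in stressed KO mice, against 0.0537, 0.0119 and 0.0352 in unstressed KO mice. Unstressed mouse 1 was above stressed mice 1 and 2. The log2 change was 0.40 ± 0.22 (limma, adjusted p = 0.178). Gzmb and Nkg7 were not listed for this comparison, and their values come from a fit over all 2999 CD4 genes, which called 11.3% higher. Gzmb had 0.224, 0.150 and 0.423 in stressed KO mice, against 0.426, 0.112 and 0.0435 in unstressed KO mice. Unstressed KO mouse 1 was the highest of these 6 mice, with a level near those of stressed WT mice 1 and 3. The log2 change of Gzmb was 0.47 ± 0.42 (limma, adjusted p = 0.428, 95% interval -0.47 to 1.40). Nkg7 had 1.66, 1.38 and 2.26 in stressed KO mice, against 1.65, 0.919 and 1.13 in unstressed KO mice. The groups overlapped, and the log2 change was 0.49 ± 0.21 (limma, adjusted p = 0.0861, 95% interval 0.04 to 0.95). Without unstressed KO mouse 1 both passed, Gzmb at 1.00 (adjusted p = 0.0202) and Nkg7 at 0.71 (adjusted p = 0.00911). Over all alternatives the adjusted p of Gzmb ran from 0.0202 to 0.926 and that of Nkg7 from 0.00911 to 0.302.

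With both genotypes in 1 fit over all 2999 CD4 genes, 6 stressed mice against 6 unstressed mice, all 4 genes rose. The log2 change was 3.09 ± 0.32 for Gzma (limma, adjusted p = 4.24e-07). For Gzmb it was 1.11 ± 0.32 (adjusted p = 0.00774), for Gzmk 0.71 ± 0.21 (adjusted p = 0.00804) and for Nkg7 0.86 ± 0.24 (adjusted p = 0.00638). In this fit 24.3% of all genes were called higher, and the median change over all genes was 0.05. Gzma had its lowest stressed value, 0.616, above its highest unstressed value, 0.194, a separation of all 12 mice that 9.44% of the 2999 genes showed. The other 3 genes overlapped.

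The level of Gzma was also set against that of Nkg7 within each mouse. The ratio of the Gzma to the Nkg7 level was 0.613 to 1.45 over the 6 stressed mice and 0.0122 to 0.172 over the 6 unstressed mice. These ranges did not overlap, and neither did those of the Gzma level alone. The share of genes whose ratio to Nkg7 is apart in this way was not computed. The ratio of Gzma to Gzmb was 4.42 to 7.84 in stressed and 0.329 to 4.46 in unstressed mice, an overlap by unstressed KO mouse 3. The ratio of Gzma to Gzmk was 12.4 to 33.2 in stressed and 2.60 to 47.9 in unstressed mice, where unstressed WT mouse 1, with 47.9, was above every stressed mouse. These ratios are given as descriptions, with no test.

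**Figure D2:**
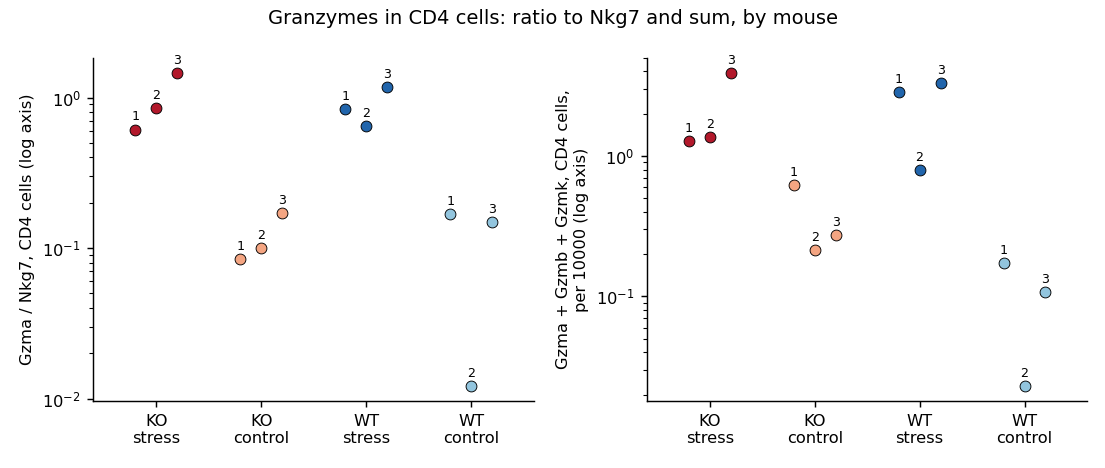
Ratio of the Gzma to the Nkg7 level (left, log axis) and the summed level of Gzma, Gzmb and Gzmk per 10000 (right, log axis) in CD4 cells of each mouse, by group, with mouse numbers as digits. The ratio is at or above 0.613 in every stressed mouse and at or below 0.172 in every unstressed mouse, and the sum is 0.794 to 3.87 in stressed and 0.0231 to 0.619 in unstressed mice.

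Whether loss of S100a9 altered the stress response was tested as the difference between the stress effects of KO and WT mice. None of the 4 genes passed. The difference (KO minus WT) was -0.52 ± 0.64 for Gzma (limma, adjusted p = 0.760, 95% interval -1.89 to 0.85). For Gzmb it was -1.29 ± 0.57 (adjusted p = 0.476, unadjusted p = 0.0378), and -0.76 without unstressed KO mouse 1. For Gzmk it was -0.61 ± 0.39 (adjusted p = 0.564) and for Nkg7 -0.74 ± 0.46 (adjusted p = 0.556, 95% interval -1.71 to 0.24). In CD4 cells limma called 0 of 2999 genes for this difference (0%), and 284 had an unadjusted p under 0.05. Leaving out unstressed KO mouse 3 gave 17 called genes, and leaving out stressed WT mouse 2 gave 2.

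Between genotypes without stress, no member passed the threshold in CD4 cells, although the mean of each in KO mice was 1.64 to 8.35 times that in WT mice. Gzmb averaged 0.194 ± 0.204 in KO mice and 0.0232 ± 0.0134 in WT mice (SD, n = 3 each). All 3 KO mice were above all 3 WT mice, as 48.0% of the 496 genes listed for this comparison were. The log2 change was 1.04 ± 0.42 (limma, adjusted p = 0.0790). Without KO mouse 3 it was 1.44 and passed (adjusted p = 0.0173), and without KO mouse 1 it was 0.51 (adjusted p = 0.129), and over all alternatives the adjusted p ran from 0.0173 to 0.183. Nkg7 averaged 1.23 ± 0.378 in KO and 0.751 ± 0.297 in WT mice (SD, n = 3 each), with a log2 change of 0.68 ± 0.30 (limma, adjusted p = 0.0927). In this comparison 15.1% of listed genes were called higher. The count of genes called in either direction, 108, ran from 2 to 252 when the mice were left out in turn. Gzma and Gzmk were not listed for it. In the fit over all CD4 genes, which called 0.433% higher, their log2 changes were 0.54 ± 0.26 (limma, adjusted p = 0.267) and 0.31 ± 0.13 (adjusted p = 0.210). Levels of other markers in these mice are given as descriptions, with no test between the genotypes. The summed level of 4 erythroid markers was 0.627 to 5.52 in unstressed KO and 0.0891 to 0.141 in unstressed WT mice, and that of 6 neutrophil and monocyte markers 1.03 to 1.67 and 0.715 to 0.777 in the same groups. The largest part of the latter sum was Cst3 (0.840 to 1.18 and 0.641 to 0.734). It also includes S100a9 itself, whose transcript had 0.0418 to 0.0493 in unstressed KO and 0.00449 to 0.0167 in unstressed WT mice. Under stress the order of S100a9 was the other way, with 0.0228 to 0.0294 in KO and 0.0595 to 0.111 in WT mice. The 21 listed effector and memory genes summed to 24.3 to 38.3 in unstressed KO and 14.3 to 19.6 in unstressed WT mice. The 4 listed regulatory T cell markers summed to 4.14 to 7.09 and 2.93 to 3.69. None of these ranges overlapped between the genotypes. Nor did the sums of granule proteases and partners (4.16 to 6.68 in KO, 3.72 to 4.13 in WT). Those of granule exocytosis genes (3.64 to 3.91 and 3.20 to 3.56) and of gamma delta and innate-like markers were also apart. The sums of natural killer, T cell and B cell markers and of the transcription factors listed below overlapped. Of the 496 genes listed for this comparison, 48.0% had all 3 KO mice above all 3 WT mice. The share over all CD4 genes was not computed, so these separations are not read as differences between the genotypes. The part of all these markers in the values of the granzymes and Nkg7 was not tested.

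Between genotypes under stress, no member was listed in CD4 cells. In the fit over all CD4 genes, which called 0.0333% higher and 0.0667% lower, the log2 change was 0.02 ± 0.48 for Gzma (limma, adjusted p = 0.994, 95% interval -1.02 to 1.07) and -0.06 ± 0.29 for Nkg7 (adjusted p = 0.973, 95% interval -0.70 to 0.58). Gzmb had -0.25 ± 0.32 (adjusted p = 0.873) and Gzmk -0.30 ± 0.31 (adjusted p = 0.835). By group mean the order for Gzma was stressed WT (1.83), stressed KO (1.82), unstressed KO (0.142) and unstressed WT (0.0709). Values of neighbours in this order overlapped except between stressed KO and unstressed KO mice.

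Nkg7 in CD8a cells was higher after stress in both genotypes. Its level was 7.47, 6.13 and 6.53 in stressed WT mice 1, 2 and 3, against 4.96, 5.30 and 4.50 in unstressed WT mice 1, 2 and 3. The groups did not overlap, as for 31.8% of listed genes, and the log2 change was 0.44 ± 0.09 (limma, adjusted p = 0.000487). In KO mice the level was 6.79, 7.69 and 7.58 after stress, against 6.38, 5.71 and 4.84 without stress. Here too the groups did not overlap, as for 26.6% of listed genes, with a log2 change of 0.38 ± 0.09 (limma, adjusted p = 0.00242). Genes called higher made up 26.7% of 2108 listed in WT and 17.9% of 2023 in KO mice. The median change over all listed genes was 0.09 in WT and 0.11 in KO mice. Over both genotypes the log2 change was 0.41 ± 0.07 (limma, adjusted p = 1.26e-05), where 24.0% of 2851 genes were called higher. Over every alternative its size stayed between 0.36 and 0.60.

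No difference of Nkg7 between genotypes passed the threshold in CD8a cells. Without stress its mean was 5.64 ± 0.770 in KO and 4.92 ± 0.402 in WT mice (SD, n = 3 each), a log2 change of 0.19 ± 0.11 (limma, adjusted p = 0.168, 95% interval -0.07 to 0.45). Of the 303 genes listed for this comparison 3.96% were called higher, and the change turned to -0.011 with centring on each mouse's median. Under stress the mean was 7.35 ± 0.489 in KO and 6.71 ± 0.689 in WT mice (SD, n = 3 each), a log2 change of 0.13 ± 0.08 (limma over all CD8a genes, of which 0.210% were called, adjusted p = 0.601, 95% interval -0.04 to 0.31). The difference between the stress effects was -0.05 ± 0.13 (adjusted p = 0.941, 95% interval -0.34 to 0.23), in a fit that called 0 of 2851 genes (0%), with 204 at an unadjusted p under 0.05. By mean the order was stressed KO, stressed WT, unstressed KO and unstressed WT, and the values of neighbours in this order overlapped each time.

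**Figure D3:**
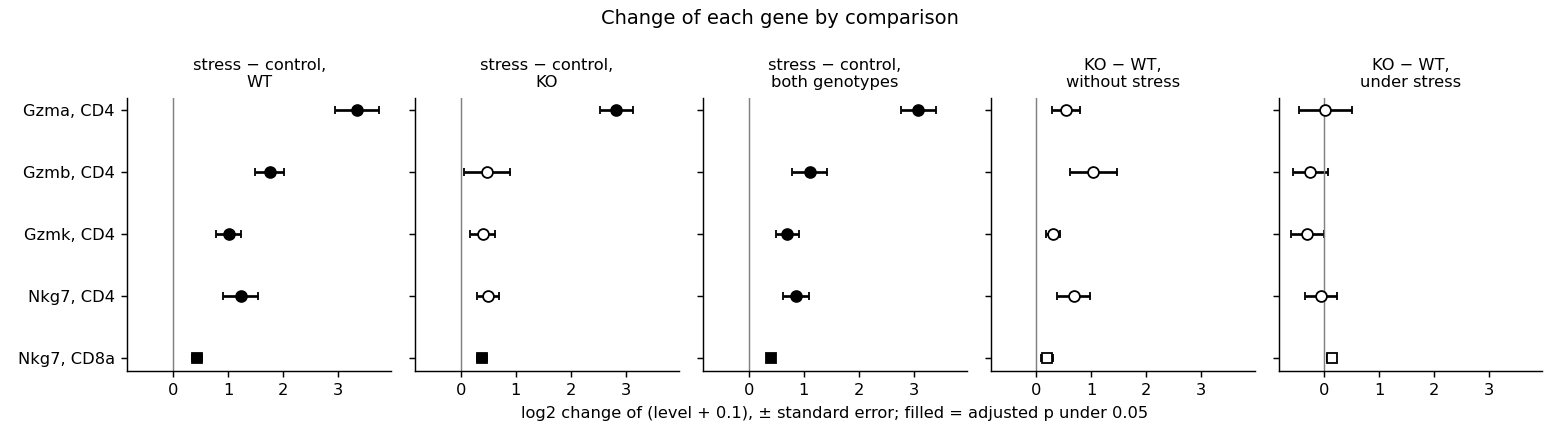
Log2 change of each gene (level + 0.1) with its standard error in the 5 comparisons, circles for CD4 and a square for CD8a cells, filled where the adjusted p was under 0.05. Gzma stands at 3.35 and 2.83 for stress in WT and KO mice, and no change between genotypes is filled.

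Nkg7 was the member that could be set between the cell types. In every mouse its level was higher in CD8a than in CD4 cells, by a ratio of 2.80 to 6.41 in the 6 stressed mice and 3.86 to 10.5 in the 6 unstressed mice. The mean difference within a mouse, CD8a minus CD4, was 2.15 ± 0.11 on the log2 scale over 12 mice (limma, adjusted p = 3.10e-08). Of 2166 genes listed in both cell types 17.3% were called higher in CD8a cells. This difference changed by -0.45 ± 0.24 with stress (limma, adjusted p = 0.826, 95% interval -0.97 to 0.06), so a different response of Nkg7 in the cell types was not shown. For that effect limma called 0 of 2166 genes (0%), and 134 had an unadjusted p under 0.05.

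**Figure D4:**
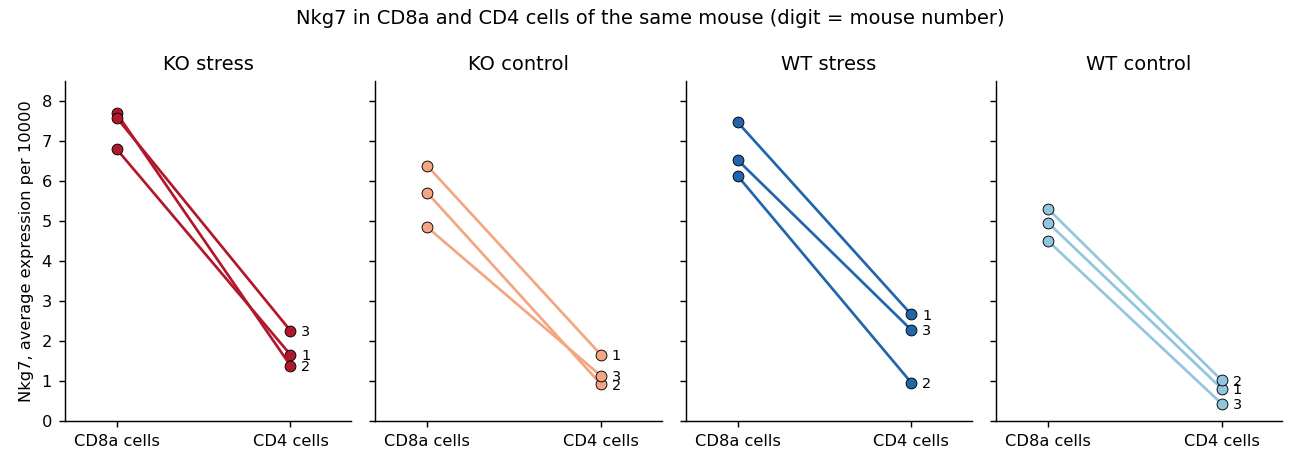
Nkg7 level (average expression per 10000, linear axis from 0) in CD8a and CD4 cells, with a line for each mouse and a panel for each group. Every line falls towards CD4 cells, where the highest value is 2.66, while the lowest value in CD8a cells is 4.50.

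The other genes of the granule pathway were counted in the stress comparison over both genotypes. There 24.3% of all CD4 genes were called higher and 28.8% lower, and 24.0% and 35.5% of all CD8a genes. The counts of the lists below are read against these shares, and with so few listed genes a share of a list is imprecise. Of 11 genes for granule proteases and their partners, 5 were listed in CD4 cells, 1 rose and 0 fell, so that the share that rose was near that of all genes. Their median log2 change was 0.20, against 0.05 over all CD4 genes. The called gene was Gzmm, a further granzyme, with 0.0455, 0.0464 and 0.102 in stressed KO and 0.118, 0.0281 and 0.0668 in stressed WT mice, against 0.0426, 0.0113 and 0.0233 in unstressed KO and 0, 0.0150 and 0.00660 in unstressed WT mice. Its log2 change was 0.51 ± 0.13 (limma, adjusted p = 0.00301). Perforin (Prf1) had 0.233 to 0.386 in stressed and 0.159 to 0.275 in unstressed mice, a change of 0.20 ± 0.11 that did not pass (adjusted p = 0.148). Serglycin (Srgn), the proteoglycan that holds granzymes in the granule, had 0.22 ± 0.12 (adjusted p = 0.146), and Cst7, an inhibitor of the cathepsin that activates granzymes, 0.16 ± 0.15 (adjusted p = 0.373). In CD8a cells 5 of the 11 were listed, 2 rose and 0 fell, with a median of 0.18, against 0.03 over all CD8a genes. They were Gzmm (0.49 ± 0.13, adjusted p = 0.00192) and the cathepsin Ctsw (0.18 ± 0.07, adjusted p = 0.0294). Genes of granule exocytosis moved both ways. In CD4 cells 6 of 12 were listed, 1 rose and 1 fell, with a median of -0.10. Vamp8, a membrane fusion protein, changed by 0.35 ± 0.09 (adjusted p = 0.00231), and Lyst, a regulator of lysosome-related organelles, by -0.81 ± 0.10 (adjusted p = 1.94e-06). In CD8a cells 3 were listed, 1 rose (Vamp8, 0.19 ± 0.07) and 1 fell (Ap3b1, -0.62 ± 0.09).

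Of 26 effector and memory genes 21 were listed in CD4 cells, where 5 rose and 1 fell, and 13 in CD8a cells, where 7 rose and 2 fell. The share that rose in CD4 cells was near the 24.3% of all genes. The chemokine Ccl5 rose in both, by 2.20 ± 0.31 in CD4 (limma, adjusted p = 1.32e-05) and 1.21 ± 0.16 in CD8a cells (adjusted p = 1.22e-06), and the integrin Itga4 fell in both, by 0.78 and 0.99. In CD4 cells Ly6c2 (1.02 ± 0.24, adjusted p = 0.00159) and the chemokine receptor Cxcr3 (0.65 ± 0.16, adjusted p = 0.00230) also rose. Of 16 transcription factors tied to cytotoxic or naive T cells, 10 were listed in CD4 cells, where 2 rose and 5 fell, and 8 in CD8a cells, where 2 rose and 4 fell. Of all genes, 28.8% fell in CD4 and 35.5% in CD8a cells. Those that fell in CD4 cells were Satb1 (-0.96 ± 0.06), Foxp1 (-0.75 ± 0.06), Lef1 (-0.55 ± 0.07), Tcf7 (-0.60 ± 0.08) and Bach2 (-0.60 ± 0.09), all known from naive T cells. Klf2, also known from naive and quiescent T cells, rose in CD4 (0.30 ± 0.05, adjusted p = 6.96e-05) and CD8a cells (0.17 ± 0.05, adjusted p = 0.00694). Hopx, known from effector and memory T cells, rose in both as well (0.43 ± 0.15 in CD4 and 0.46 ± 0.10 in CD8a cells), and Id3 had -0.02 ± 0.12 in CD4 cells (adjusted p = 0.911). Tbx21, which encodes T-bet, a factor known to drive granzyme genes, had a change of 0.15 ± 0.12 in CD4 cells (limma, adjusted p = 0.303). Earlier results of these data were known when these lists were drawn up, and the genes in the tables were selected on these mice.

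**Figure D5:**
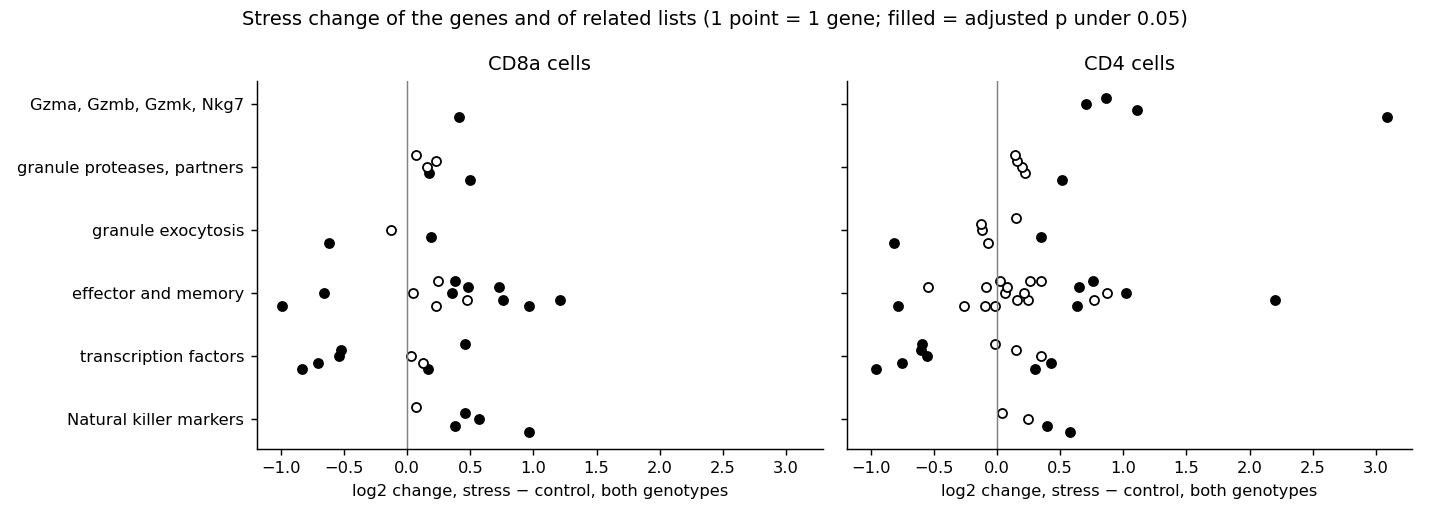
Log2 stress change over both genotypes for each listed gene of the 4 members, 4 related gene lists and natural killer markers, in CD8a (left) and CD4 cells (right), filled where the adjusted p was under 0.05. Gzma, at 3.09 in CD4 cells, lies to the right of every other point shown, and Ccl5, at 2.20, is next.

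Markers of other cells were measured in the same averages, again beside 24.3% of all genes called higher and 28.8% lower in CD4 cells, and 24.0% and 35.5% in CD8a cells. Of 17 natural killer markers 4 were listed in CD4 cells, 2 rose (S1pr5, 0.58 ± 0.15, and Klrd1, 0.40 ± 0.16) and 0 fell. Their summed level was 0.737 to 1.02 in stressed KO, 0.508 to 0.774 in unstressed KO, 0.485 to 0.975 in stressed WT and 0.417 to 0.558 in unstressed WT mice. The other listed markers did not pass, with a change of 0.25 ± 0.22 for Fcer1g (limma, adjusted p = 0.358) and 0.04 ± 0.18 for Tyrobp (adjusted p = 0.879). Tyrobp had 0.0430 to 0.267 in stressed and 0.0366 to 0.177 in unstressed mice. No listed marker was at 0 in all mice. In CD8a cells 5 of the 17 were listed, 4 rose and 0 fell. Xcl1, which rose, was also counted among the effector and memory genes above. The sum was 3.09 to 4.81 in stressed KO, 2.92 to 3.73 in unstressed KO, 3.69 to 4.12 in stressed WT and 2.94 to 3.26 in unstressed WT mice. The largest part of this sum was Klrd1, which did not pass in CD8a cells (0.07 ± 0.05, limma, adjusted p = 0.299). In CD4 cells the CD8 genes had changes of 0.34 ± 0.19 (Cd8a, adjusted p = 0.150) and 0.30 ± 0.22 (Cd8b1, adjusted p = 0.277). B cell markers fell in 3 of 6 cases in CD4 and 8 of 8 in CD8a cells, neutrophil and monocyte markers rose in 3 of 6 and 3 of 7, and erythroid markers in 0 of 4 and 1 of 4. Of regulatory T cell markers 1 rose and 2 fell of 4 in CD4 cells, and 1 of 1 rose in CD8a cells. Of 2 listed gamma delta and innate-like markers 1 fell in CD4 cells, and 0 of 8 were listed in CD8a cells. Basophil and mast cell markers were listed in 0 of 3 cases. T cell markers rose in 5 and fell in 1 of 9 in CD4, and rose in 3 and fell in 4 of 9 in CD8a cells. The part of other cells in the changes of the granzymes and Nkg7 was not tested.

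The genes with the pattern most like each member over 12 mice were found by Pearson's r of log2(level + 0.1) among 2162 CD4 genes or 2046 CD8a genes. For Gzma they were Eif3i (r = 0.96, Spearman's rho = 0.92), Ccl5 (0.95 and 0.94) and Krtcap2 (0.95 and 0.92). For Gzmb they were Tmem14c (0.97 and 0.95), the class I gene H2-D1 (0.96 and 0.95) and Tspo (0.96 and 0.99). For Gzmk they were Plekhj1 (0.91 and 0.92), Lamtor4 (0.90 and 0.85) and Dynlrb1 (0.89 and 0.90). For Nkg7 they were Gpsm3 (0.94 and 0.94), AW112010 (0.93 and 0.87) and H2-K1 (0.93 and 0.85) in CD4 cells, and Taf10 (0.96 and 0.94), Eef1g (0.93 and 0.93) and Atp5j (0.93 and 0.91) in CD8a cells. Among the members themselves r in CD4 cells ran from 0.78, between Gzma and Gzmb, to 0.86, between Gzma and Gzmk. The mice include both stressed and unstressed groups, and 53.2% of CD4 genes were called for stress in either direction, so these values are descriptions over mice that share that difference. With each group's mean removed, r was 0.82 between Gzma and Ccl5, 0.88 between Gzma and Gzmk and 0.58 between Gzma and Gzmb.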

How the data were processed

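Splenocytes of 12 mice were profiled with the 10x Genomics single cell 3' v2 kit, which counts transcript ends, per the labels' protocols. Cell Ranger 2.1.1 and mm10 are named in the submitters' processing notes. Filters on cells, doublets, the calling of CD4 and CD8a cells and the selection of genes are not given in the labels.

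The authors deposited 8 tables, 4 per cell type, holding a linear signal, the expression averaged over a mouse's cells of that type, per the file headers. Each table lists genes for 1 comparison, and no gene's value differed between tables of a cell type (0 genes). The values are no whole reads, so no count model was used, depth is unknown and no counting interval can be given. All value columns were mapped to mice.

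Changes were computed on log2(value + 0.1) in limma 3.58.1 (R 4.3.3) with a mean-variance trend, two-sided tests and Benjamini-Hochberg adjustment. Stress and genotype were compared 3 mice against 3 over the genes listed for that comparison. Unlisted members, the stress effect over both genotypes and the interaction were fitted over all genes of a cell type, and the cell types by the difference within a mouse. Fold changes on this scale understate low genes. Mice are separate animals with no batch in the labels. Errors of changes are standard errors. The fits, except those between genotypes under stress, were tried on simulated data with known changes. The check asked only that the mean estimate be close to the known change, not how many calls were false. Noise in the simulated data was independent, also between the CD4 and CD8a cells of a mouse. Such data cannot speak to the selection of genes on these same mice.

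The members, lists and motifs were chosen with earlier results of these data known. The named genes were the members, the 3 genes most like each by Pearson's r (lowest 25% by mean, predicted genes and receptor segments left out), and up to 4 per list by smallest p; others named as examples were chosen after their values were seen. Alternatives were pseudocounts of 0.01 and 1, the lowest 25% of genes left out, median centring, rescaling without ribosomal and mitochondrial genes, no trend, a mouse-number block, all groups or all genes in 1 fit, and each mouse left out. Gene positions and promoters came from RefSeq (GRCm38.p6).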

Additional observations from a re-analysis of the deposited data

Results flagged for a closer look

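Gzmb in CD4 cells of unstressed KO mouse 1 had a level of 0.426, against 0.00791 to 0.112 in the other 5 unstressed mice of both genotypes. The gap to the next mouse was 0.750 of the whole range, which is above Dixon's 95% limit for 6 samples. It was taken on the linear level with both genotypes pooled, not on the log2 scale of the tests, where the gap was not computed. Chance alone passes this limit in about 1 in 20 groups. The same mouse had the highest unstressed values of Nkg7, 1.65, and Gzmk, 0.0537, in CD4 cells, and the highest unstressed Nkg7 in CD8a cells, 6.38. For Gzma it was not the highest, with 0.140 against 0.194 in unstressed KO mouse 3. It was not apart in Gzmb, Gzmk and Nkg7 alone. In CD4 cells its regulatory T cell markers summed to 7.09, against at most 4.31 in the other unstressed mice. Its sums of effector and memory genes (38.3), erythroid markers (5.52) and neutrophil and monocyte markers (1.67) and its Srgn level (5.88) were also the highest of the unstressed mice. Its sums of natural killer (0.611), B cell (7.33) and gamma delta and innate-like markers (0.242) were not.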

How the results depend on the processing

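Of 507 alternative values for 32 results on the members, 488 kept their direction and side of the threshold, 0 lost a call, 7 gained one and 12 changed direction. Every call named for stress in WT mice, for Gzma in KO mice, for stress over both genotypes and between cell types was kept in the alternatives run. In KO mice, centring on each mouse's median took Nkg7 in CD4 cells past the threshold (0.63). Leaving out mice in turn gave 0.062 to 1.00 for Gzmb and 0.31 to 0.71 for Nkg7 there, and 0.51 to 1.44 for Gzmb between unstressed KO and WT mice. Between stressed KO and WT mice Gzma changed sign with a pseudocount of 1 (-0.0085) and with rescaling (-0.0077), and ran from -0.59 to 0.39 when mice were left out in turn, while Nkg7 in CD4 cells ran from -0.49 to 0.21. Nkg7 in CD8a cells gave -0.011 for unstressed KO minus WT with centring, and -0.16 to 0.037 for the difference of stress effects when mice were left out. The cause was not tested.

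The mouse number as a replicate block gave Gzmk (0.40, adjusted p = 0.0424) and Nkg7 (0.49, adjusted p = 0.0291) for stress in KO mice and Gzmb (1.04, adjusted p = 0.0483) for unstressed KO minus WT. The numbers did not pair mice: over 24 same-numbered pairs r of the deviations ran from -0.24 to 0.24.

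Counts of called genes moved by more than 1.5 times as follows, over all alternatives. In CD4 cells stress in KO called 750 (625 to 1184). Unstressed KO minus WT called 108 (2 to 252), and stressed KO minus WT 29 (2 to 52). In CD8a cells the counts were 810 (700 to 1366), 25 (9 to 126) and 61 (3 to 61). Interactions called 0 in each, at most 17 and 1. Filtering the lowest 25% of genes removed Gzmb or Gzmk in CD4 cells, so those values could not be had. Depth is unknown and limits the low genes most.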
